A study of Mus musculus with 6 samples.

Results

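The D and E cyclins, their kinases CDK4 and CDK6 and the RB family of pocket proteins set the gate through which a cell leaves G1. The 10 genes Ccnd1, Ccnd2, Ccnd3, Ccne1, Ccne2, Cdk4, Cdk6, Rb1, Rbl1 and Rbl2 were taken by symbol from a table of 32285 genes, and all 10 were found once. All 10 passed the filter on low counts and were tested. Mitogens raise the D cyclins, which bind CDK4 or CDK6 and start to phosphorylate the pocket proteins pRB (Rb1), p107 (Rbl1) and p130 (Rbl2). The pocket proteins then release E2F factors, which switch on the E cyclins and the genes of DNA synthesis, and cyclin E with CDK2 completes the phosphorylation. CIP/KIP inhibitors, among them p57, the product of Cdkn1c, bind these cyclin-kinase complexes. In spermatogonial stem cells cyclin D2 is known as a cyclin raised by GDNF signalling.

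The RNA came from GS cells, cultured mouse spermatogonia with stem cell properties that were derived from testes of Cdkn1c conditional mutants, and the comparison asks how these cells differ 2 days after Cre was supplied. The 3 control libraries are labelled p57 flox/flox and the 3 p57 KO libraries p57 flox/flox-Cre, so that floxed alleles of Cdkn1c are shared by both groups. Cre came from an adenovirus, and whether controls were infected with a Cre-free virus was not given in the sources used here. The deleted stretch of Cdkn1c was also not stated there. The cells were trypsinised and passed over a Sephadex G15 column before RNA extraction. The sample labels name BDF1 as the model and give the mice as 3 days old, while the design text names C57BL/6 and 129 and an age of 10 days. The labels do not say whether replicates were separate cultures, so p-values speak only to the spread among these libraries, and that spread may be technical.

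Libraries held 15662833 to 17893671 counts. Levels are given as CPM, counts scaled to a fixed library size, after TMM scaling. "Rose" and "fell" stand for genes with an adjusted p under 0.05 in edgeR's quasi-likelihood test, with Benjamini-Hochberg adjustment over 14814 genes. Cdkn1c itself was at 20.9, 21.4 and 19.9 CPM in control and 8.71, 9.44 and 8.51 CPM in p57 KO (log2 fold change -1.22, SE 0.09, edgeR adjusted p = 4.07e-09). The labelled cell type was matched by its markers: all 15 spermatogonial and germ cell markers were detected, led by Dazl, Etv5, Ret and Ddx4. Of these 15, 8 fell and 1 rose, against 11.6% of all tested genes called in each direction. The summed level of the 15 markers was 4358 to 4413 CPM in control and 3766 to 3972 CPM in p57 KO. The 16 fibroblast and feeder cell markers moved the other way, with 888 to 1140 CPM in control and 1391 to 2741 CPM in p57 KO. All 16 had a positive fold change and 5 were called, against 11.6% of all tested genes called higher. A fibroblast score, the mean log2 CPM of these markers, was 3.68, 4.25 and 3.76 in control replicates 1, 2 and 3 and 4.53, 5.14 and 5.65 in p57 KO replicates 1, 2 and 3. Of 6 markers of differentiating spermatogonia, 2 rose and 1 fell, against 11.6% of all tested genes called in each direction. Kit had 0.55, Sohlh1 0.21 and Sohlh2 -0.21 in log2 (edgeR adjusted p = 0.00633, 0.00664 and 4.14e-05). These 6 markers summed to 424 to 426 CPM in control and 376 to 407 CPM in p57 KO. Of the other cell types, 6 of 8 Sertoli, 5 of 6 Leydig and 5 of 7 macrophage markers were under 1 CPM on average. Hsd3b1 was at 0 in every library. Both macrophage markers that could be tested were called higher, against 11.6% of all tested genes. Cd68 had 0.40 and Lyz2 2.13 in log2 (edgeR adjusted p = 0.0037 and 0.00243). Lyz2 was near the floor, with 10, 8 and 1 counts in control and 18, 39 and 29 counts in p57 KO. Lyz2 passed the filter on low counts only through the p57 KO libraries. Being tested thus already favoured a rise, and its call is not read as a result. The macrophage list summed to 12.7 to 13.6 CPM in control and 17.7 to 21.7 CPM in p57 KO. The 5 endothelial markers summed to 82.1 to 86.0 CPM in control and 74.4 to 77.8 CPM in p57 KO, where Kdr and Cdh5 fell and Tek rose. The part of these cell types in the results was not tested. In bulk RNA of this kind, fewer cells of a type and less RNA per cell cannot be told apart.

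For 6 of the 10 genes the RefSeq promoter table (GRCm38.p6) held a sequence: Ccnd3, Ccne1, Cdk4, Cdk6, Rbl1 and Rbl2. The 250 bases before the start of Cdk4 and of Rbl1 are shown because they carry textbook sites of the factors around this gate, which were themselves measured here: E-boxes, bound by MYC family proteins, and the E2F site. Both are printed 5′ to 3′ along the gene, with the matches in capitals. Cdk4 is on the plus strand at chr10:127063285-127063534 and Rbl1 on the minus strand at chr2:157204535-157204784.
Cdk4: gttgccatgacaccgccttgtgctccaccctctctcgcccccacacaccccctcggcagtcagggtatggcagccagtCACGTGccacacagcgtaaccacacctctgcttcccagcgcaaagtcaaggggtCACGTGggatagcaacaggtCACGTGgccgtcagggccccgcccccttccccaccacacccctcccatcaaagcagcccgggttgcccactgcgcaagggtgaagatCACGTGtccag
Rbl1: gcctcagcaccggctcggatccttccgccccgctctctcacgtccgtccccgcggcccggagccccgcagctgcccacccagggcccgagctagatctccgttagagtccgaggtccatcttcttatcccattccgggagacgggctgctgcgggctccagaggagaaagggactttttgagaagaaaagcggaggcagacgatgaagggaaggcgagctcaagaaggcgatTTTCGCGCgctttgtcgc
The Cdk4 stretch held the E-box CACGTG, which reads the same on both strands, at 4 places, beginning 172, 118, 98 and 11 bases before the start. Of 32817 promoter stretches of the same length, 6.02% held at least 1 such match and 7 (0.0213%) held 4 or more. The Rbl1 stretch held 1 match, 18 bases before the start, to the E2F words TTTCCCGC, TTTCGCGC, TTTGCCGC and TTTGGCGC, searched on both strands; 1.86% of the stretches had a match. Cdk6 had 1 E-box match. The CHR word TTTGAA, a site of DREAM and MuvB complexes, was searched on both strands too, with 1 match in Rbl2, 201 bases before the start, and in 16% of all stretches. None of the 3 word sets matched in Ccne1 or in either promoter listed for Ccnd3. A match is a description of the letters and not evidence of binding.

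The genes lie apart in the genome (mm10, GENCODE M21). Ccnd1 is on chromosome 7 from 144929931 to 144939925, Ccnd2 on chromosome 6 from 127125162 to 127152193 and Ccnd3 on chromosome 17 from 47505051 to 47599691. Ccne1 is on chromosome 7 from 38097984 to 38107534, Ccne2 on chromosome 4 from 11191351 to 11204779, Cdk4 on chromosome 10 from 127063534 to 127067920 and Cdk6 on chromosome 5 from 3341485 to 3531008. Rb1 is on chromosome 14 from 73183673 to 73325822, Rbl1 on chromosome 2 from 157145893 to 157204534 and Rbl2 on chromosome 8 from 91070057 to 91123844. All but Ccne1 and Rbl1 share exonic bases with a gene on the opposite strand, so that their values are uncertain to the extent that reads were counted without regard to strand. None of the 7 such neighbours that could be tested was called, among them LTO1 at Ccnd1 (log2 fold change -0.20, edgeR adjusted p = 0.129) and Aktip at Rbl2 (0.11, 0.256).

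Of the 10 genes, Ccne1 and Rbl2 rose, Ccnd2 and Cdk4 fell, and 6 were not called. The background was high: 23.3% of all tested genes were called, 11.6% higher and 11.6% lower, and the count of 4 in 10 is read against that share and not as a feature of these genes. The median log2 fold change was -0.03 for the 10 genes and -0.0019 for all genes tested. The control and p57 KO libraries did not overlap for 3 genes that were higher (Ccnd1, Ccne1, Rbl2) and 3 that were lower (Ccnd2, Cdk4, Rbl1), against 39.2% of all tested genes without overlap, 19.5% higher and 19.7% lower. When edgeR tested for changes beyond 1.2-fold, it called 0 of the 10 (1 at an unadjusted p under 0.05) and 3.17% of all genes. Each of the 4 calls held when any 1 library was left out, in fits that called 16.7%, 18.5% and 15.6% of all genes without control replicates 1, 2 and 3 and 26.7%, 17.4% and 18.2% without p57 KO replicates 1, 2 and 3. Of all genes, 16.5% were called by DESeq2, 22.3% by limma-voom, 23.2% with RLE size factors, 16.9% with no filter, 23.7% with a filter at 1 CPM in 3 libraries and 25% with a replicate block.

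**Figure D1:**
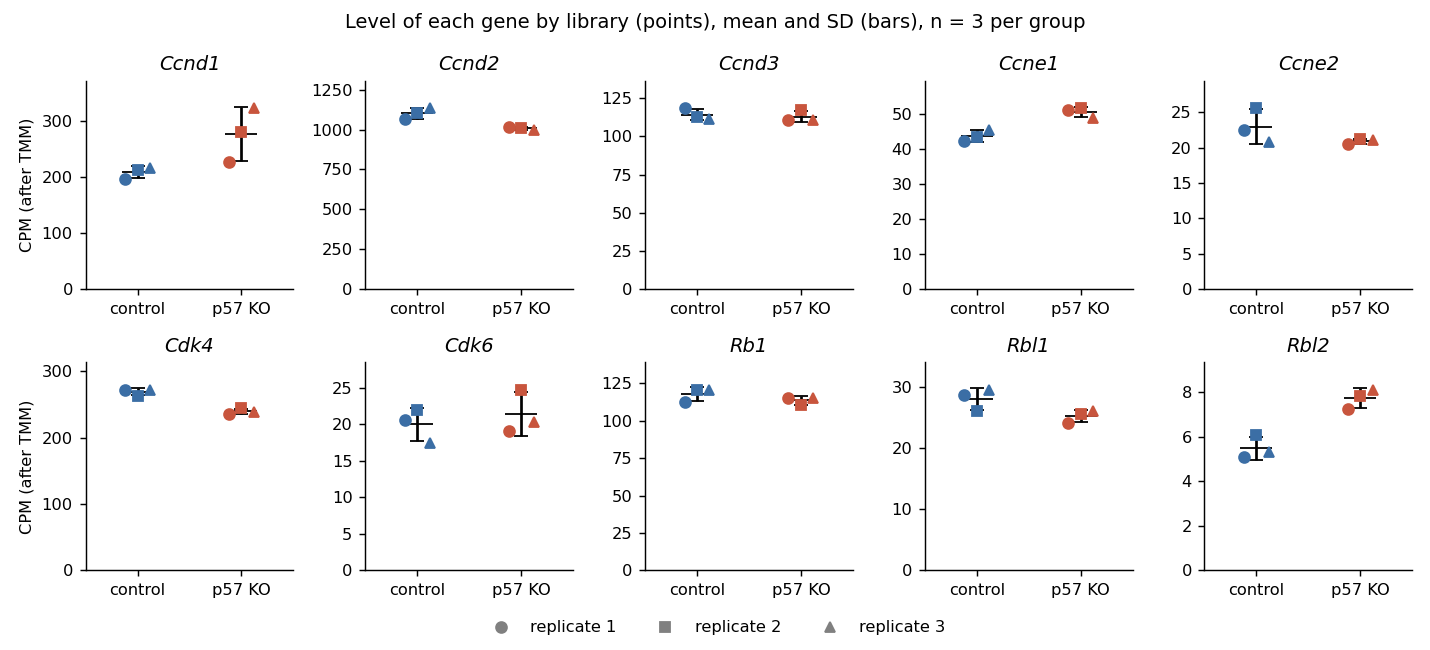
Level of the 10 genes in CPM after TMM scaling (y axis, from 0) in the 3 control and 3 p57 KO libraries (points, shape by replicate number), with mean and SD as bars. Ccne1 and Rbl2 lie higher in every p57 KO library and Ccnd2 and Cdk4 lower, while the 3 p57 KO points of Ccnd1 spread from 227 to 323 CPM.

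Among the D cyclins, the mitogen-responsive partners of CDK4 and CDK6, Ccnd2 had the highest level per exon length, and it fell. Its level was 1065, 1105 and 1135 CPM in control and 1019, 1009 and 997 CPM in p57 KO. Every p57 KO library was below every control library, by a small margin. For Ccnd2 the log2 fold change came to -0.13 (SE 0.03, 95% interval -0.18 to -0.07, edgeR adjusted p = 0.00147), from 1102 ± 35.2 to 1008 ± 10.9 CPM (SD, n = 3 per group). The summed level of the germ cell markers given above differed in the same direction by -0.19 on the log2 scale. That sum includes Gfra1, Ret and Etv5, which are also on the list of GDNF signalling genes. The part of this sum in the fall of Ccnd2 was not tested. With the fibroblast score as a covariate in edgeR, Ccnd2 had -0.11 (SE 0.05, adjusted p = 0.235).

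Ccnd1, which encodes cyclin D1, lies on chromosome 7, 1.47 Mb from Cdkn1c. It was at 196, 213 and 216 CPM in control and 227, 280.0 and 323 CPM in p57 KO. All p57 KO libraries were above the controls, replicate 1 by little and replicate 3 by most. The mean went from 208 ± 10.5 to 277 ± 48.0 CPM (SD, n = 3 per group), a log2 fold change of 0.41 that was not called (SE 0.15, 95% interval -0.0017 to 0.82, edgeR adjusted p = 0.141). It was called without p57 KO replicate 1 (0.53, edgeR adjusted p = 0.0136), the library closest to the controls. DESeq2 also called it (0.41, adjusted p = 0.044). Among the p57 KO libraries, the one with the most Ccnd1 also had the highest fibroblast score and the one with the least the lowest. With that score as a covariate, the log2 fold change of Ccnd1 turned to -0.06 (SE 0.07, edgeR adjusted p = 0.782). Because the score was higher in every p57 KO library than in any control, that model cannot tell score and group apart. The part of other cells in the Ccnd1 difference was not tested.

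Ccnd3, the gene of cyclin D3, differed by less than the spread between libraries. It was at 119, 113 and 112 CPM in control and 111, 117 and 111 CPM in p57 KO. The groups overlapped, and the 95% interval of the log2 fold change of -0.02 ran from -0.09 to 0.06 (edgeR adjusted p = 0.798).

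Ccnd1 made up more of the D cyclin RNA, and Ccnd2 less, in every p57 KO library than in any control. Levels of different genes are compared here as CPM per kb of annotated exon. On that scale, Ccnd2 made up 67.2%, 66.9% and 67.3% of the D cyclin RNA in the control libraries and 64.0%, 59.5% and 56.6% in p57 KO replicates 1, 2 and 3. The share of Ccnd1 was 24.8%, 25.8% and 25.6% in control and 28.5%, 33.0% and 36.6% in p57 KO. That of Ccnd3 was 6.74% to 8.02% over all libraries. The 6 libraries had the same order by Ccnd1 share as by fibroblast score. The part of other cells in these shares of bulk RNA was not tested. The sum of the 3 genes was 174 ± 5.49 CPM per kb in control and 179 ± 9.05 CPM per kb in p57 KO (SD, n = 3 per group). Within a library, where scaling plays no part, the log2 ratio of the counts of Ccnd1 to Ccnd2 was -2.44, -2.38 and -2.39 in control and -2.17, -1.85 and -1.63 in p57 KO. The difference of 0.52 separated all libraries, with p = 0.1 in an exact two-sided permutation test, the smallest that 3 against 3 libraries allow (0.15 adjusted over 6 ratios). The ratio of Ccnd3 to Ccnd2 differed by 0.11 with groups that overlapped (exact permutation p = 0.3, adjusted 0.3). With the length of the longest transcript in place of all exons, Ccnd2 held 67.1% of the D cyclin RNA in control and 60.8% in p57 KO.

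**Figure D2:**
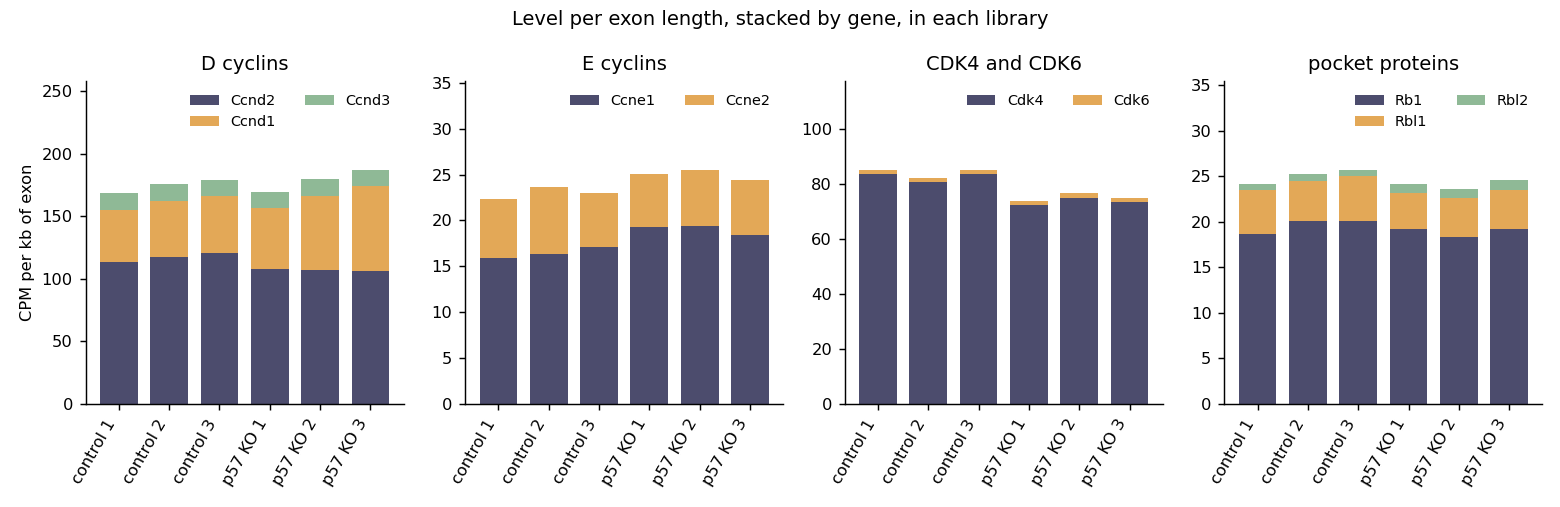
Level in CPM per kb of annotated exon (y axis, from 0), stacked by gene, for D cyclins, E cyclins, CDK4 with CDK6, and pocket proteins in each of the 6 libraries. The Ccnd1 part of the D cyclin bar is 24.8% to 25.8% in control and 28.5% to 36.6% in p57 KO. By that part the libraries have the same order as by fibroblast score. Cdk6 and Rbl2 are thin slices in every library.

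CDK4, the kinase partner of the D cyclins, had the second most abundant RNA of the group per length, and it fell. Cdk4 was at 272, 263 and 272 CPM in control and 236, 244 and 239 CPM in p57 KO. The libraries of the groups did not overlap, and the spread within each was small. The log2 fold change of Cdk4 was -0.17 (SE 0.03, 95% interval -0.23 to -0.11, edgeR adjusted p = 0.000194), from 269 ± 5.56 to 239.6 ± 4.24 CPM (SD, n = 3 per group). With the fibroblast score as a covariate Cdk4 had a like fold of -0.16 with a larger error (SE 0.05, edgeR adjusted p = 0.114). The summed germ cell markers differed in the same direction (-0.19), and the part of this in the fall of Cdk4 was not tested. The markers in that sum were not alike: 8 of the 15 fell, 1 rose and 6 were not called. Those not called were Ddx4 (-0.04), Lin28a (-0.01), Dnd1 (-0.03), Uchl1 (0.07), Utf1 (-0.48) and Cdh1 (0.44). Cdk4 shares 641 exonic bases with Tspan31 on the other strand, whose log2 fold change was 0.03 (edgeR adjusted p = 0.77).

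Cdk6, the other kinase of the D cyclins, differed by less than the spread between libraries. It was at 20.6, 22.0 and 17.5 CPM in control and 19.1, 24.8 and 20.4 CPM in p57 KO, with groups that overlapped. Its log2 fold change of 0.10 had a 95% interval from -0.13 to 0.32 (edgeR adjusted p = 0.555), and it was -0.02 without p57 KO replicate 2. Per exon length Cdk6 made up 1.70% ± 0.217 of the RNA of the 2 kinases in control and 2.03% ± 0.242 in p57 KO (SD, n = 3 per group). The within-library log2 ratio of Cdk6 to Cdk4 differed by 0.26, with groups that overlapped (exact permutation p = 0.2, adjusted 0.24).

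The E cyclins, the partners of CDK2 at the entry into S phase, had unlike values. Ccne1 was at 42.3, 43.5 and 45.5 CPM in control and 51.2, 51.7 and 49.0 CPM in p57 KO. Every p57 KO library was above every control library. The log2 fold change of Ccne1 was 0.21 (SE 0.05, 95% interval 0.10 to 0.31, edgeR adjusted p = 0.00429), from 43.8 ± 1.60 to 50.6 ± 1.48 CPM (SD, n = 3 per group). With the fibroblast score as a covariate it had 0.26 with a larger error (SE 0.10, edgeR adjusted p = 0.148).

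Ccne2 was at 22.6, 25.6 and 20.8 CPM in control and 20.5, 21.2 and 21.1 CPM in p57 KO. The p57 KO libraries lay close together, within or below the wide control range. Its log2 fold change of -0.14 was not called (SE 0.08, 95% interval -0.30 to 0.02, edgeR adjusted p = 0.217), and was -0.30 with the fibroblast score as a covariate (SE 0.14, adjusted p = 0.332). Ccne2 shares 609 exonic bases with Ints8 on the other strand, whose log2 fold change was -0.08 (edgeR adjusted p = 0.101). The within-library log2 ratio of Ccne2 to Ccne1 was -0.91, -0.76 and -1.13 in control and -1.32, -1.29 and -1.22 in p57 KO. The groups did not overlap, and the difference was -0.34 (exact permutation p = 0.1, adjusted 0.15). Per exon length Ccne1 made up 71.5% ± 2.59 of the E cyclin RNA in control and 76.1% ± 0.665 in p57 KO (SD, n = 3 per group).

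Among the pocket proteins, the repressors that hold E2F factors, Rb1 had the highest level per exon length. It was at 112, 121 and 121 CPM in control and 115, 110.2 and 115 CPM in p57 KO. The groups overlapped, and the log2 fold change of -0.05 had a 95% interval from -0.13 to 0.02 (edgeR adjusted p = 0.326).

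Rbl1, the gene of p107 and a known E2F target, was at 28.6, 26.1 and 29.5 CPM in control and 24.0, 25.6 and 26.0 CPM in p57 KO. The highest p57 KO library lay just under the lowest control library. The log2 fold change of -0.15 was not called (SE 0.07, 95% interval -0.29 to -0.01, edgeR adjusted p = 0.109).

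Rbl2 encodes p130, the pocket protein of resting cells, which with E2F4 or E2F5 and the MuvB core forms the DREAM repressor. It had the fewest counts of the 10 genes and the lowest level per exon length, with 83 to 103 counts in each control and 115 to 145 in each p57 KO library. Its level was 5.10, 6.06 and 5.31 CPM in control and 7.26, 7.85 and 8.12 CPM in p57 KO. No library overlapped, and Rbl2 had the largest log2 fold change of the 10 at 0.50 (SE 0.13, 95% interval 0.22 to 0.77, edgeR adjusted p = 0.00928). DESeq2 gave the same fold with an adjusted p of 0.0503. The 6 libraries had the same order by Rbl2 level as by fibroblast score. Adding that score to the model left Rbl2 at 0.25 in log2 (SE 0.24, edgeR adjusted p = 0.708).

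Within the libraries, Rbl2 was higher relative to the other pocket genes in p57 KO. The log2 ratio of Rb1 to Rbl2 was 4.46, 4.32 and 4.51 in control and 3.99, 3.81 and 3.83 in p57 KO, and that of Rbl1 to Rbl2 was 2.49, 2.10 and 2.48 in control and 1.73, 1.70 and 1.68 in p57 KO. Neither ratio overlapped between the groups, with differences of -0.55 and -0.65 (exact permutation p = 0.1 each, adjusted 0.15). Rbl2 nonetheless made up only 2.90% ± 0.242 of the pocket protein RNA per exon length in control and 4.25% ± 0.237 in p57 KO (SD, n = 3 per group), while Rb1 held 78.4% ± 1.09 and 78.3% ± 0.986. The sum of the 3 pocket genes was 25.0 ± 0.792 and 24.1 ± 0.486 CPM per kb.

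**Figure D3:**
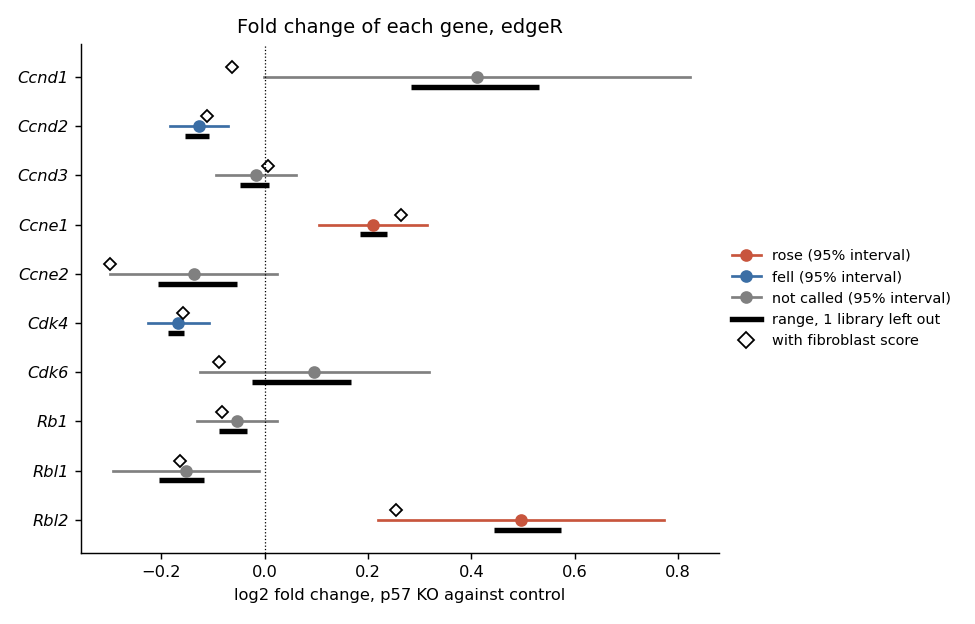
Log2 fold change of the 10 genes, p57 KO against control (x axis), with its 95% interval in edgeR (thin line), the range when 1 library is left out (thick line) and the value with the fibroblast score as a covariate (diamond). Ccnd1 goes from 0.41 to -0.06 and Rbl2 from 0.50 to 0.25 with the score, while Cdk4 stays at -0.17 and -0.16.

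The order of the levels was nearly fixed. In CPM per kb of exon, the control means were 117 for Ccnd2, 82.8 for Cdk4, 44.3 for Ccnd1, 19.6 for Rb1, 16.4 for Ccne1, 13.0 for Ccnd3, 6.58 for Ccne2, 4.68 for Rbl1, 1.43 for Cdk6 and 0.726 for Rbl2. Neighbours in this order had separate ranges over the 3 control libraries. In p57 KO the order was the same but for Rb1 (18.9) and Ccne1 (19.0), whose ranges overlapped. With the length of the longest transcript, Ccnd3 (29.6 in control) came before Rb1 (25.3). The annotated exon length of Ccnd3 is 8775 bases and its longest transcript 3858, so its place depends on the length used.

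With the fibroblast score as a covariate, edgeR called 0 of the 10 genes (4 at an unadjusted p under 0.05) and 2.69% of all genes. The score was higher in every p57 KO library than in any control, so score and group cannot be told apart in that model. The errors in it were larger for 9 of the 10 genes. For Ccnd1 the error was smaller, 0.07 against 0.15.

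**Figure D4:**
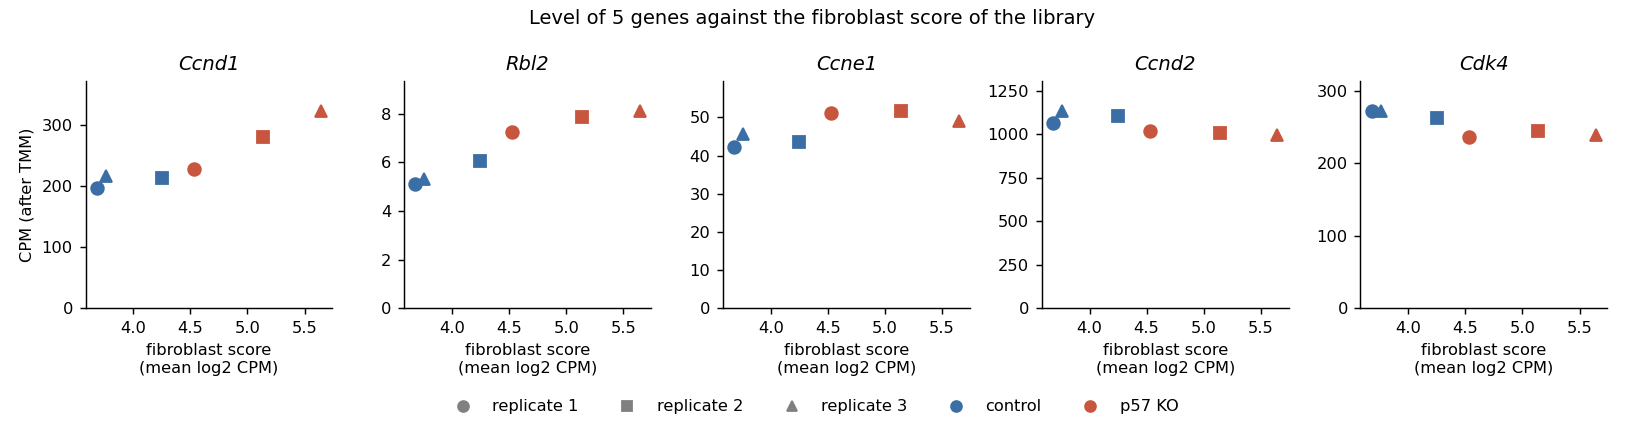
Level in CPM (y axis, from 0) of Ccnd1, Rbl2, Ccne1, Ccnd2 and Cdk4 against the fibroblast score of the library, the mean log2 CPM of 16 markers (x axis), for control (blue) and p57 KO (red) libraries. Ccnd1 and Rbl2 are highest in p57 KO replicate 3, which has the highest score (5.65), while Cdk4 lies at 236 to 244 CPM over the whole p57 KO range of the score.

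The other genes of the G1/S pathway were read from lists of 7 to 20 genes. Of 7 CDK inhibitors, Cdkn1a and Cdkn2a rose and Cdkn1c fell, against 23.3% of all tested genes called, with a list median of 0.33. Cdkn1a encodes p21, an inhibitor of the same family as p57, and went from 59.5 ± 8.23 to 144 ± 15.3 CPM (SD, n = 3 per group), a difference of 1.27 in log2 (edgeR adjusted p = 0.00583). Cdkn2a and Cdkn2b encode INK4 inhibitors of CDK4 and CDK6, and Cdkn2a also encodes ARF. Cdkn2a had 0.33 (edgeR adjusted p = 0.00742), which was not called without control replicate 1 (0.33, adjusted p = 0.0508) or p57 KO replicate 2 (0.33, 0.0584), and had -0.0067 with the fibroblast score. Cdkn2b had 1.07 and was not called (edgeR adjusted p = 0.0621), but was without p57 KO replicate 1 (1.26, adjusted p = 0.000184), without p57 KO replicate 3 (0.81, 5.15e-06) and in DESeq2 (1.07, 0.00119). The fibroblast score in the model took Cdkn2b to 0.16 (edgeR adjusted p = 0.691). Cdkn1a kept its call in that model, with 0.89 (edgeR adjusted p = 3.19e-10).

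Of 10 E2F and DP factors, the partners of the pocket proteins, 4 fell and 1 rose (median -0.07), against 11.6% of all tested genes in each direction. E2f1, an activator, fell from 138 ± 2.78 to 119.8 ± 4.63 CPM (SD, n = 3 per group), a difference of -0.21 in log2 (edgeR adjusted p = 0.000222). E2f5, a repressor that pairs with p130, had -0.30 (edgeR adjusted p = 0.000904) and the repressor E2f6 -0.13 (0.00773). E2f8, an atypical repressor that binds no pocket protein, rose by 0.25 (edgeR adjusted p = 0.00637). These 4 calls held without any 1 library, and none held once the fibroblast score was in the model, in which their log2 fold changes were -0.10, -0.23, -0.06 and 0.24.

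Of 20 E2F target genes, 4 fell and 1 rose (median -0.03), a count near the 23.3% called among all tested genes. Rrm1, a subunit of ribonucleotide reductase, had -0.10 (edgeR adjusted p = 0.0109), which held without any 1 library. Mcm7 and Mcm4, of the replicative helicase, had -0.10 (edgeR adjusted p = 0.0148) and -0.08 (0.0404), and Pola1, of DNA polymerase alpha, 0.19 (0.0194). These 3 calls were each lost without any of several single libraries. In edgeR the adjusted p without control replicate 1 was 0.0569 for Mcm7, 0.0556 for Mcm4 and 0.0973 for Pola1, and without control replicate 2 it was 0.0751, 0.101 and 0.0576. Without p57 KO replicate 3 it was 0.0938 for Mcm7 and 0.232 for Mcm4, without control replicate 3 it was 0.119 for Mcm4, and without p57 KO replicate 2 it was 0.0822 for Pola1. The list then held 1 call without control replicate 1 or 2 and 3 without control replicate 3 or p57 KO replicate 3, and DESeq2 called 3. With the fibroblast score in the model edgeR called 0 of the 20 (2 at an unadjusted p under 0.05), against 2.69% of all genes. In that model Rrm1 had -0.09 (edgeR adjusted p = 0.448) and Mcm4 -0.02 (0.901).

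CDK2 and the genes that activate G1 kinases gave no call: 0 of 8 in edgeR (2 at an unadjusted p under 0.05) and 0 in DESeq2 and limma-voom, with a median of 0.02. Of all genes, 23.3% were called in edgeR, 16.5% in DESeq2 and 22.3% in limma-voom. Cdk7, the catalytic subunit of the CDK-activating kinase, had the smallest p, with 0.09 (edgeR adjusted p = 0.12). Cks2 had 0.13 (edgeR adjusted p = 0.134) and was called without p57 KO replicate 1 (0.18, adjusted p = 0.0285). Ccnh, the cyclin of CDK7, had -0.07 and Ccna2, the S phase cyclin, 0.07.

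Genes of GDNF signalling and the MYC genes, which act upstream of the D cyclins, form a list of 11, of which 6 fell and 2 rose (median -0.10), against 11.6% of all tested genes in each direction. Gfra1, Ret and Etv5, which all fell, are also among the germ cell markers, so the counts for these lists are not independent. Ret, the GDNF receptor kinase, had -0.34 (edgeR adjusted p = 0.000288) and Etv5, a target of the pathway, -0.20 (5.46e-05). Mycn fell from 111 ± 4.87 to 95.7 ± 2.40 CPM and Myc rose from 1.82 ± 0.270 to 5.43 ± 0.863 CPM (SD, n = 3 per group), with log2 fold changes of -0.22 (edgeR adjusted p = 0.000301) and 1.58 (4.45e-06). Once the fibroblast score was added to the model, Myc kept its call (1.14, edgeR adjusted p = 0.0437), and Ret (-0.16, 0.0661), Etv5 (-0.13, 0.181) and Mycn (-0.20, 0.157) lost theirs.

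**Figure D5:**
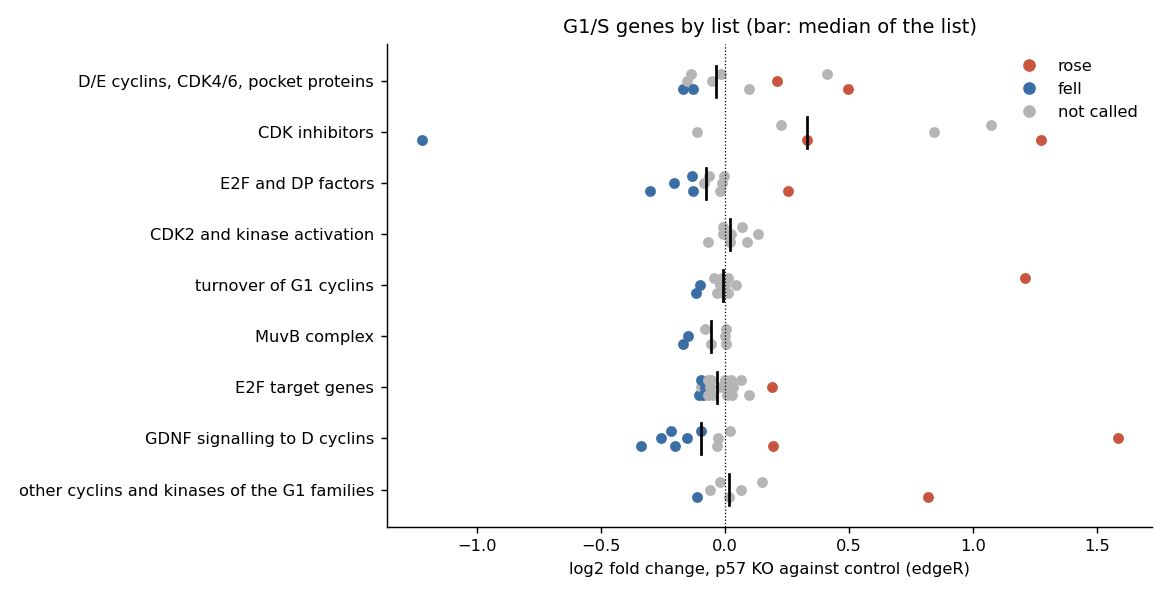
Log2 fold change, p57 KO against control (x axis), of each tested gene (points) in the 10 cyclin, kinase and pocket protein genes and in 8 lists of other G1/S genes, with the median of each list as a bar. The cyclin, kinase and pocket genes sit between -0.17 and 0.50, and the widest values are those of Cdkn1c (-1.22) and Myc (1.58).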

How the data were processed

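RNA was measured in 6 libraries, 3 control and 3 p57 KO. The authors deposited whole-number gene counts without normalization. Per the submitters' processing notes, bcl2fastq 2.20, cutadapt 3.4, HISAT2 2.2.1, HTSeq 2.0.2 and build mm10 were used; the annotation, the strand setting and the handling of reads with several matches were not given in the sources used here. Antisense overlaps are therefore uncertain. Counts were tested with edgeR 4.0.16 (R 4.3.3) after filterByExpr at defaults, which kept 14814 of 32285 genes, with TMM scaling, robust quasi-likelihood dispersions and the group as the only term. Ratios of counts within a library were compared by exact permutation. Exon lengths and overlaps came from GENCODE M21. The test was tried on simulated counts. Replicate pairs differed by more than sampling noise (chi-square per degree of freedom 1.69 to 5.97). Alternatives were RLE, DESeq2 1.42.0, limma-voom (limma 3.58.1), other filters, a replicate block, each library left out, a fibroblast covariate and a fold of 1.2. Named were the 10 genes, Cdkn1c and up to 4 genes of smallest p per list. Members, lists and alternatives were chosen with earlier results of these data known.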

Additional observations from a re-analysis of the deposited data

How the results depend on the processing

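The counts of called genes kept within 1.5 times their values (3450 of all genes, 4 of the 10) in RLE, DESeq2, limma-voom, both filters, the replicate block and each fit without 1 library, which gave 2358 to 4029 genes and 4 to 5 of the 10. With the fibroblast score as a covariate 398 genes were called, 240 higher and 158 lower, and 0 of the 10. Against a fold of 1.2 it was 469, 414 higher and 55 lower, and 0 of the 10. Directions turned with the fibroblast score for Ccnd1 (-0.064), Ccnd3 (0.0065), Cdk6 (-0.088), Cdkn2a (-0.0067), Ccna2 (-0.045), Lin52 (0.17), Ccny (0.0080), Cdk14 (-0.067) and Cul1 (-0.020), and for Ccnd3 without control replicate 1 (0.0088, with a lowest value of -0.047 without p57 KO replicate 2) and Cdk6 without p57 KO replicate 2 (-0.024, with a highest value of 0.17 without p57 KO replicate 1). The cause was not tested. DESeq2 called 1403 genes higher and 1044 lower, edgeR 1725 each. The 6 ratios kept their direction in every alternative run. For Ccnd1 to Ccnd2, Ccne2 to Ccne1, Rb1 to Rbl2 and Rbl1 to Rbl2 the groups did not overlap. Leaving out a library could not turn the direction of these ratios. Same-numbered libraries correlated at 0.38, 0.09 and -0.18 in their deviations from the group means over 9761 genes. The highest correlation, 0.48, was between control replicate 2 and p57 KO replicate 3. Deviations within a group of 3 libraries depend on each other, so these values cannot settle whether replicate numbers pair the libraries. The replicate block called 3706 genes and 4 of the 10; for Ccnd1 it gave an adjusted p of 0.0919. The block gave differences of the ratios equal to those without it, because pairing leaves the difference of means unchanged. The smallest possible sign-flip p was 0.25. Of the 10 genes, Rbl2 had the fewest counts, 83 to 145 per library.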

Other observations

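Of 12 tested genes that remove G1 cyclins, 2 fell and 1 rose, against 23.3% of all genes called. With the fibroblast score in the model edgeR called 0 of the 12 (0 at an unadjusted p under 0.05), against 2.69% of all genes. Cul3, a ubiquitin ligase scaffold known to act on cyclin E, changed by -0.11 in log2 (edgeR adjusted p = 0.00352), called without any 1 library but not with the score (-0.09, adjusted p = 0.469). Cul4b had -0.10 (0.0167; 0.0937 if control replicate 2 is dropped, 0.0807 if p57 KO replicate 3 is). Fbxo4 was at 0.575 CPM (control) and 1.32 CPM (p57 KO), and differed by 1.21 in log2 (edgeR adjusted p = 0.0209; 0.11 in DESeq2, and 0.068, 0.104 and 0.181 without control replicates 1 and 2 and p57 KO replicate 3). Fbxo4 had 9, 7 and 12 counts in control and 16, 17 and 34 in p57 KO. It passed the filter on low counts only with the p57 KO libraries, so its call is not read as a result. Cul1, the scaffold of the SCF ligase, had 0.04 (edgeR adjusted p = 0.334).

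The MuvB complex pairs with p130 in resting cells and with B-MYB in dividing cells. Of 7 genes, those of the complex with Mybl2 and Foxm1 added, 2 fell in edgeR. In DESeq2 0 of the 7 passed (2 at an unadjusted p under 0.05). Of all genes, 23.3% were called in edgeR and 16.5% in DESeq2. Lin54, the DNA-binding subunit of the complex, had -0.17 (edgeR adjusted p = 0.0215) and Mybl2, the gene of B-MYB, -0.15 (0.0309). Neither held throughout: 0 of the 7 were called without control replicate 2 (Lin54 adjusted p = 0.121, Mybl2 0.0969) or p57 KO replicate 2 (0.0756 and 0.0656), and 1 without control replicate 1 (Mybl2 0.134), control replicate 3 (Lin54 0.0535) or p57 KO replicate 3 (Mybl2 0.125). In the model with the fibroblast score edgeR called 0 of the 7 (1 at an unadjusted p under 0.05), against 2.69% of all genes. Lin37 and Lin52 had -0.06 and -0.08.

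Of 7 other cyclins and kinases, 1 rose and 1 fell, against 23.3% of all genes called. Ccng1, a p53 target that encodes cyclin G1, rose from 241 ± 16.9 to 425 ± 29.5 CPM (SD, n = 3 per group), a difference of 0.82 in log2 (edgeR adjusted p = 0.002). In the model with the score as covariate it had 0.59 (edgeR adjusted p = 3.19e-10). Cdk8, the kinase of the Mediator complex, had -0.11 (edgeR adjusted p = 0.0202; 0.0873, 0.0793 and 0.0734 without control replicate 1 and p57 KO replicates 2 and 3, and 0.072 in DESeq2). Ccny had -0.06 and Cdk14 0.15, not called.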
